A study of Mus musculus with 12 samples.

Results

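The genes described here are 10 acute phase genes of the mouse liver other than the serum amyloids: Orm1, Orm2, Orm3, Serpina3n, Lcn2, Hp, Hpx, Itih3, Itih4 and Steap4. They were taken as a named list from the 30063 genes that had a probe set naming exactly 1 gene symbol, and each was represented by 1 probe set. All 10 passed the filter on low signal and were among the 19985 genes tested. Liver RNA of 12 mice was measured on whole-transcript Affymetrix arrays, 1 array per mouse. The PVP-AgNP group received 20 nm silver nanoparticles coated with polyvinylpyrrolidone (PVP), a neutral polymer, and the cit-AgNP group received particles of the same size coated with citrate, a small charged molecule. Both were dosed by gavage at 4 mg Ag per kg on each of 7 days, and the control group received water. Each group held 4 mice, 2 females and 2 males, all 3 months old. The strain, C57BL/6J -Oca2p-un/J, is a C57BL/6J line with an unstable pink-eyed allele of Oca2 that the controls carried too. Livers were taken 24 h after the last dose, so the data hold 1 time point and 1 dose.

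The acute phase response is the change in the plasma proteins that hepatocytes make when cytokines reach the liver. Interleukin-6 acts through STAT3 and interleukin-1 through NF-kB, C/EBP factors and glucocorticoids add to both, and genes such as the alpha-1-acid glycoproteins and Lcn2 can change over a wide range while others that are abundant at rest change little. Of the 10 genes, 9 encode secreted plasma proteins. Steap4 encodes a membrane-bound metalloreductase and so is not a secreted protein, although it is induced by the same cytokines. Lcn2 and Hp are also genes of neutrophil granules and Steap4 is also a gene of adipocytes, and in whole liver a change in the number of such cells and a change in RNA per cell cannot be told apart.

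The signals are log2 values from the submitters' table, which stops at a ceiling of 19.93. A log2 signal belongs to its own probe set, so levels are compared between mice and not between genes. Hpx stood at the ceiling on 10 of 12 arrays, with 19.93 and 19.64 on the others (cit-AgNP replicate 2, just below the ceiling, and control replicate 4), so only a bound was measured and no fold change is given for it. The other 9 genes lay below the ceiling on every array, and counts below are over these 9. Orm1, Serpina3n and Itih4 came within 0.03, 0.07 and 0.13 of the ceiling in PVP-AgNP replicate 2, where differences could be understated. Hepatocyte markers identified the tissue, with 7 of the 9 measured markers at the ceiling on 10 or more arrays. Array quality, given as the area under the curve that separates exon from intron control probe sets, was 0.778 to 0.821 in PVP-AgNP livers, 0.814 to 0.827 in cit-AgNP livers and 0.804 to 0.842 in control livers.

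Upstream sequences of these genes are shown as a description, and common control of the genes was not tested. The sequences are the 250 bases before the annotated start, written 5′ to 3′ on the gene's own strand. They come from RefSeq on the GRCm38.p6 assembly, in which 8 of the 10 genes had an entry, all except Orm1 and Hp. Capitals mark matches, on either strand, to the STAT3 motif TTCNNNGAA, the C/EBP motif TTNNGNAA, the NF-kB motif (GGGNN followed by TTNCC) or the glucocorticoid receptor motif (GNACA, then any 3 bases, then TGTNC). The first pair are the neighbouring genes Orm2 (chr4:63362199-63362448, plus strand) and Orm3 (chr4:63355908-63356157, plus strand). The second pair are Lcn2 (chr2:32387740-32387989, minus strand) and Serpina3n (chr12:104406458-104406707, plus strand), and the third are Itih4 (chr14:30886226-30886475, plus strand) and Steap4 (chr5:7960222-7960471, plus strand), the genes with a STAT3 match.
Orm2: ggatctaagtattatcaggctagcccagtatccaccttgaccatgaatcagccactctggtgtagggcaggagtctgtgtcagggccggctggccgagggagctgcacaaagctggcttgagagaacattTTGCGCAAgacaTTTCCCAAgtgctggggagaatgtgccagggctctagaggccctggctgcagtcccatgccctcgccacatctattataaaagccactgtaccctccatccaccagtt
Orm3: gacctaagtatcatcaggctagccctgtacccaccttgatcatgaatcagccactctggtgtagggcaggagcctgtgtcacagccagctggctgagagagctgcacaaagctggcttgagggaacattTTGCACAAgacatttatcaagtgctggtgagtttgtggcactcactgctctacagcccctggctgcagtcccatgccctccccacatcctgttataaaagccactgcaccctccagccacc
Lcn2: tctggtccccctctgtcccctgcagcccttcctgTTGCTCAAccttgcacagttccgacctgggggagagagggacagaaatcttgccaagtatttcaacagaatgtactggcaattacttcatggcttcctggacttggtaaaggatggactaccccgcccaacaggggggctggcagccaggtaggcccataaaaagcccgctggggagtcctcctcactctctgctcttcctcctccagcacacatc
Serpina3n: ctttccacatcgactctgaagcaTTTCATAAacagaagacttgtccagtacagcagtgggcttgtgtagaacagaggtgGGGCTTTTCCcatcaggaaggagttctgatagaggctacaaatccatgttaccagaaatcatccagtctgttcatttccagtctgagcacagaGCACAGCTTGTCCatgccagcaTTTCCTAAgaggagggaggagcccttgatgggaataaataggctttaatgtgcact
Itih4: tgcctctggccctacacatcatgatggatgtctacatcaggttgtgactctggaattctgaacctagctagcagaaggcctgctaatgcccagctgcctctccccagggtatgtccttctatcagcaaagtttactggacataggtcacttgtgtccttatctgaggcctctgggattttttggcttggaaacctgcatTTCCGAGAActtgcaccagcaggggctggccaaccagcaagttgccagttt
Steap4: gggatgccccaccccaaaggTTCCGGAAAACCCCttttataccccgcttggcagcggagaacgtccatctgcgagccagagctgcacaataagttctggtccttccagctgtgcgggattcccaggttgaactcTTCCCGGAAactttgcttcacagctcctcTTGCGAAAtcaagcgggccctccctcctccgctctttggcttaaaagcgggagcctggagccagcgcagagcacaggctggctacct

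The C/EBP letters were present upstream of 6 of the 8 genes, Orm2, Orm3, Lcn2, Serpina3n, Hpx and Steap4, and in 36.8% of all 32851 windows of this length. Orm2 and Orm3 hold a match at nearly the same place, beginning 120 and 121 bases before the start, and their upstream sequences were identical at 218 of 255 aligned positions (85.5%). The STAT3 letters began 51 bases before the start of Itih4 and 116 before that of Steap4, and were present in 7.02% of all windows. The NF-kB letters were found upstream of Serpina3n and Steap4 (4.11% of all windows), and the glucocorticoid receptor letters upstream of Serpina3n (0.387%). In Steap4 the NF-kB match overlaps a C/EBP match. Itih3, whose sequence is not printed, held no match to any of these motifs. Hpx, for which no fold change is given, is not printed either. Each sequence printed holds a match. These matches describe letters only.

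The alpha-1-acid glycoproteins Orm1, Orm2 and Orm3, plasma carriers of basic and lipophilic drugs with effects on immune cells, are encoded together on chromosome 4. Orm3 and Orm2 are adjacent, and Orm1 is separated from Orm3 by 1 annotated gene, Gm11212. Because the 3 are close relatives, cross-hybridisation between their probe sets was not tested. Orm2 had log2 signals of 19.42 and 19.24 in PVP-AgNP females and 13.65 and 13.47 in PVP-AgNP males, 17.57 and 13.91 in cit-AgNP females and 12.52 and 12.35 in cit-AgNP males, against 13.65 and 15.46 in control females and 12.87 and 12.30 in control males. Both PVP-AgNP females therefore stood above every other liver, cit-AgNP replicate 1, a female, came next, and the males of the exposed groups lay among the control livers. The difference between PVP-AgNP and control livers was 2.87 on the log2 scale (SE 0.88, 7.32-fold, limma adjusted p = 0.152).

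Orm3 had the same 3 highest livers. Its signals were 10.42 and 11.77 in PVP-AgNP females and 6.57 and 6.24 in PVP-AgNP males, 9.77 and 8.52 in cit-AgNP females and 6.06 and 5.61 in cit-AgNP males, against 6.59 and 8.96 in control females and 6.38 and 5.56 in control males. The PVP-AgNP minus control difference was 1.88 (SE 0.67, limma adjusted p = 0.184). Orm1 had 19.49 and 19.90 in PVP-AgNP females and 18.18 and 18.20 in PVP-AgNP males, 18.88 and 18.05 in cit-AgNP females and 17.78 and 18.00 in cit-AgNP males, against 18.05 and 18.07 in control females and 18.04 and 17.61 in control males. Here all 4 PVP-AgNP livers lay above all 4 control livers, and the difference was 1.00 (SE 0.26, 2-fold, limma adjusted p = 0.123).

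Lcn2 encodes lipocalin 2, which binds bacterial siderophores and so keeps iron from bacteria. Its signals were 11.13 and 13.60 in PVP-AgNP females and 5.99 and 5.67 in PVP-AgNP males, 9.14 and 6.49 in cit-AgNP females and 4.96 and 5.35 in cit-AgNP males, against 4.92 and 6.54 in control females and 4.44 and 4.74 in control males. It had the widest range of the 9 genes, and its PVP-AgNP minus control difference of 3.94 (SE 1.07, 15.3-fold, limma adjusted p = 0.128) was the largest among them. Both PVP-AgNP males lay above both control males, although below 1 of the control females.

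Serpina3n, a mouse serine protease inhibitor related to human alpha-1-antichymotrypsin, had 18.76 and 19.86 in PVP-AgNP females and 16.29 and 15.95 in PVP-AgNP males, 17.26 and 16.98 in cit-AgNP females and 15.78 and 16.17 in cit-AgNP males, against 15.87 and 16.41 in control females and 16.01 and 15.79 in control males. The 4 females of the exposed groups were the 4 highest livers, and the 4 males of the exposed groups overlapped the controls. The difference between PVP-AgNP and control livers was 1.69 (SE 0.52, 3.23-fold, limma adjusted p = 0.152).

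Itih3 and Itih4, neighbours on opposite strands of chromosome 14, encode heavy chains of the inter-alpha-trypsin inhibitor family, whose members bind hyaluronan in the matrix or act as plasma acute phase proteins. Itih3 had 18.64 and 18.95 in PVP-AgNP females and 16.18 and 17.03 in PVP-AgNP males, 17.38 and 16.24 in cit-AgNP females and 16.29 and 16.53 in cit-AgNP males, against 16.88 and 15.67 in control females and 15.96 and 16.21 in control males. Itih4 had 19.66 and 19.80 in PVP-AgNP females and 18.60 and 18.82 in PVP-AgNP males, 19.22 and 18.68 in cit-AgNP females and 18.28 and 18.46 in cit-AgNP males, against 18.74 and 18.64 in control females and 18.66 and 18.22 in control males. In both genes the PVP-AgNP females were the 2 highest livers and cit-AgNP replicate 1 the third, followed by PVP-AgNP replicate 4, a male. The PVP-AgNP minus control differences were 1.52 for Itih3 (SE 0.46, limma adjusted p = 0.147) and 0.66 for Itih4 (SE 0.17, limma adjusted p = 0.126).

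Haptoglobin, the product of Hp, captures free haemoglobin for the receptor Cd163, and haemopexin, the product of Hpx, carries free haem to the receptor Lrp1. Hp had 18.78 and 18.76 in PVP-AgNP females and 18.40 and 18.67 in PVP-AgNP males, 18.40 and 18.05 in cit-AgNP females and 18.40 and 18.40 in cit-AgNP males, against 18.31 and 17.73 in control females and 18.38 and 18.22 in control males. As with Orm1, all 4 PVP-AgNP livers lay above all 4 control livers, by a narrow margin, with a difference of 0.49 (SE 0.15, 1.41-fold, limma adjusted p = 0.149). The same deposited value stood on 4 of the 12 arrays, a feature shared by 25.9% of the 305 tested genes with a mean signal over 17 and by 0.751% of all genes tested, so small differences of Hp were poorly resolved.

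Steap4, which reduces iron and copper at cell membranes, had 14.49 and 16.18 in PVP-AgNP females and 13.40 and 13.39 in PVP-AgNP males, 14.57 and 13.89 in cit-AgNP females and 13.82 and 13.78 in cit-AgNP males, against 13.15 and 13.39 in control females and 13.42 and 13.70 in control males. All 4 cit-AgNP livers lay above all 4 control livers, while the PVP-AgNP males lay among the controls and PVP-AgNP replicate 2 stood apart from the rest. The difference from control was 0.95 for PVP-AgNP (SE 0.46, limma adjusted p = 0.276) and 0.60 for cit-AgNP (SE 0.46, limma adjusted p = 0.951).

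The comparison of PVP-AgNP with water asked whether these genes differ after exposure to PVP-coated silver. Of the 9 genes, 9 had a positive difference, from 0.49 for Hp to 3.94 for Lcn2, with a median of 1.52 against -0.002 over all genes tested. None passed the threshold of an adjusted p under 0.05 in limma with group and sex as terms, where 0.04% of the 19985 genes passed, so none of the 9 is called changed. At an unadjusted p under 0.05, 8 of the 9 were higher, all except Steap4, against 8.05% of all genes, and 0 of 9 were lower (12.2% of all genes). The groups did not overlap for 2 of the 9, Orm1 and Hp, against 2.98% of all genes. These p-values set each difference against the spread that the group and sex terms leave. That spread holds the spread between mice and also any difference between the sexes in the response.

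The differences were largest in the females. Both PVP-AgNP females lay above the other 10 livers in 8 of the 9 genes, all except Steap4, against 2.64% of all genes tested. Without these 2 females the PVP-AgNP minus control differences were 0.45 for Orm1, 1.31 for Orm2, 0.81 for Orm3, 0.44 for Serpina3n, 1.62 for Lcn2, 0.26 for Hp, 0.57 for Itih3, 0.35 for Itih4 and 0.01 for Steap4, with limma adjusted p-values of 0.508 to 0.992. Leaving out PVP-AgNP replicate 2 alone gave 2.90 for Lcn2, 1.17 for Serpina3n and 0.40 for Steap4, and leaving out control replicate 2 gave 1.16 for Orm3. The exon over intron area of the array of PVP-AgNP replicate 2 was 0.821, within the range of the control arrays, while that of PVP-AgNP replicate 1 was the lowest of the 12, 0.778.

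**Figure D1:**
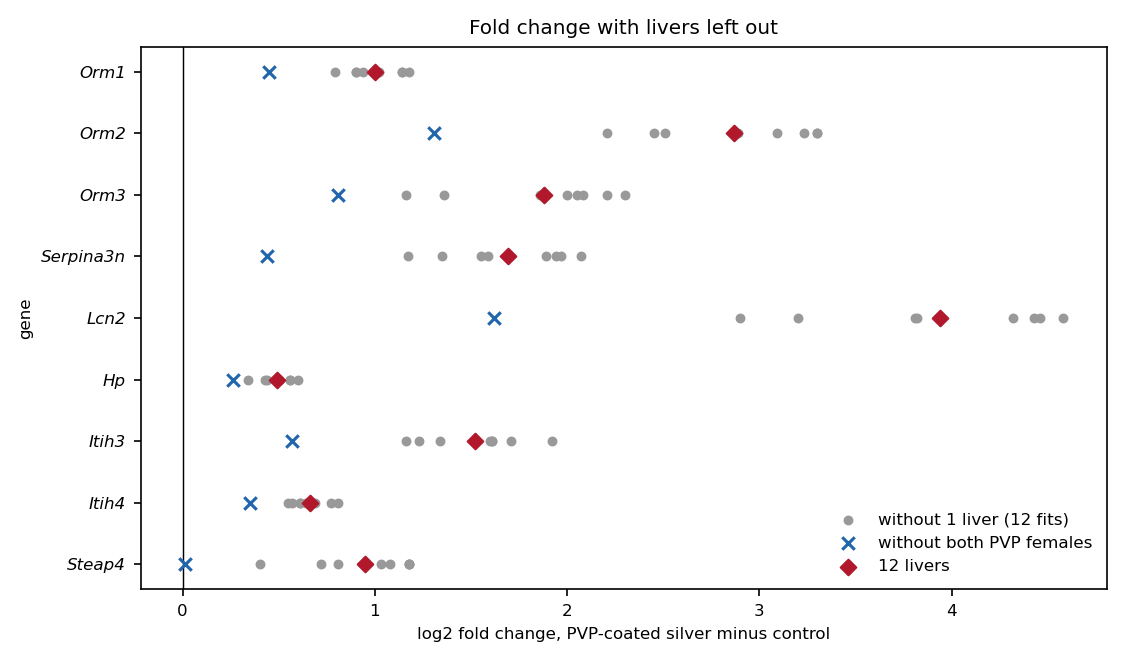
PVP-AgNP minus control difference (log2) of each of 9 genes with all 12 livers (diamonds), with 1 liver left out in each of 12 fits (grey circles) and without both PVP-AgNP females (crosses). The crosses lie nearest to 0 for each gene, with 0.01 for Steap4 and 1.62 for Lcn2.

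Fitted within each sex, the PVP-AgNP minus control difference in females was 6.64 for Lcn2 (SE 0.99, 99.6-fold), 4.77 for Orm2 (SE 1.02, 27.4-fold), 3.31 for Orm3 (SE 0.78, 9.95-fold) and 3.17 for Serpina3n (SE 0.35, 8.97-fold). It was 2.52 for Itih3, 2.06 for Steap4, 1.64 for Orm1, 1.04 for Itih4 and 0.75 for Hp. The limma adjusted p-values in females were 0.121 to 0.251, so none passed, where 0.0% of all genes did, and all 9 were higher at an unadjusted p under 0.05, against 4.58% of all genes. Both PVP-AgNP females lay above both control females in 9 of 9 genes, which held for 14.6% of all genes. In males the differences ran from -0.17 for Steap4 to 1.24 for Lcn2, with a median of 0.37 and limma adjusted p-values of 0.732 to 0.940, and 0 of 9 were higher at an unadjusted p under 0.05 (3.64% of all genes). Both PVP-AgNP males lay above both control males for Hp, Lcn2, Orm1 and Orm2, 4 of 9, which held for 22.1% of all genes.

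The difference between the sexes in the PVP-AgNP response was itself tested, as the difference in females minus that in males. It was positive for 9 of 9 genes, from 0.52 for Hp to 5.40 for Lcn2 (SE 1.39), with 2.95 for Serpina3n (SE 0.49, 95% interval 1.83 to 4.07, unadjusted p = 0.000267 and limma adjusted p = 0.994). At an unadjusted p under 0.05, 8 of the 9 were higher in females, all except Hp, against 1.71% of all genes, and none passed over all genes (0.0% of all genes passed). Each sex held 2 mice per group, so each of these values sets 8 livers against each other.

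**Figure D2:**
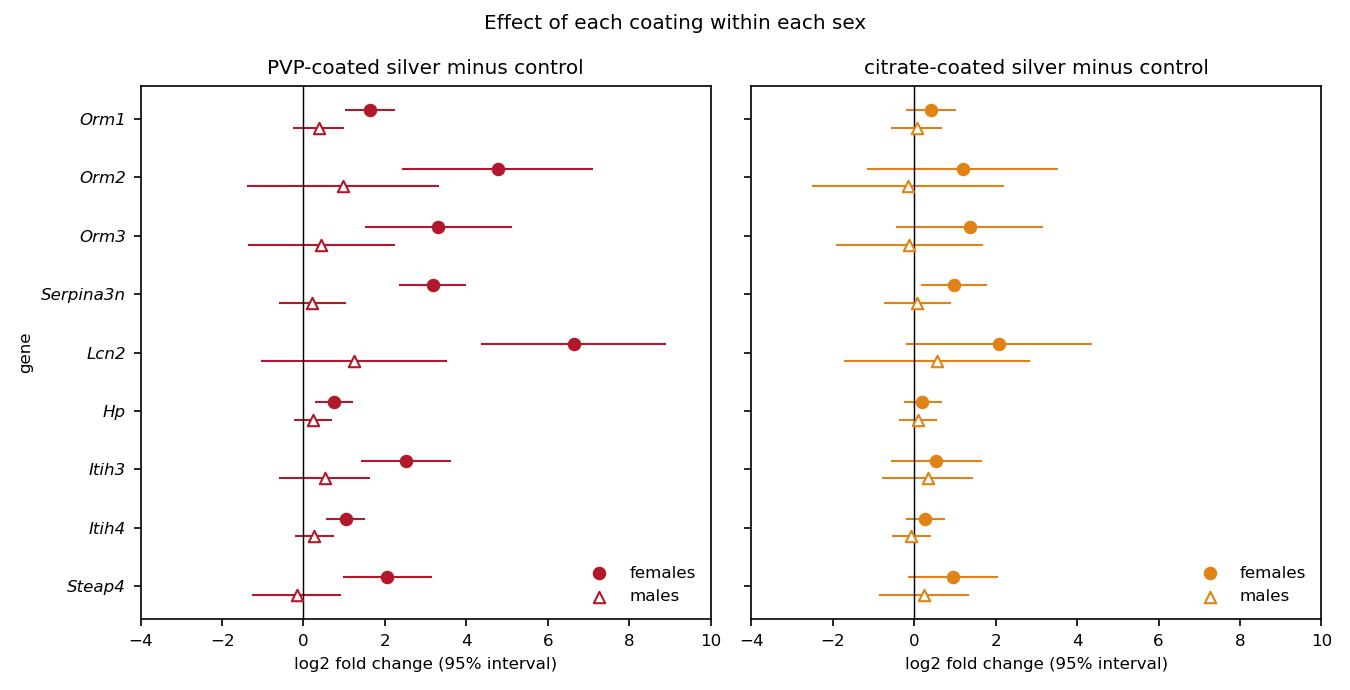
Difference from control (log2, with 95% intervals) of 9 genes in females (filled circles) and males (open triangles), for PVP-AgNP on the left and cit-AgNP on the right. With PVP-AgNP the female intervals lie above 0 for each gene and the male intervals include 0, and with cit-AgNP the intervals include 0 except that of Serpina3n in females.

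The comparison of cit-AgNP with water gave smaller values for each of the 9 genes. They ran from 0.10 for Itih4 to 1.33 for Lcn2, with a median of 0.52 against 0.0 over all genes, limma adjusted p-values of 0.951 to 1.0, and 95% intervals that included 0 in each case, such as -1.04 to 3.69 for Lcn2. Single livers moved these values: without control replicate 2, Lcn2 was at 0.59, Orm2 at -0.15, Orm3 at -0.10, Serpina3n at 0.19 and Steap4 at 0.37. Without control replicate 4, Itih3 was at 0.07 and Hp at 0.00, and without cit-AgNP replicate 1, Orm1 was at 0.12 and Itih4 at 0.00. Without cit-AgNP replicate 2, Lcn2 was at 1.97. None passed, where 0.005% of all genes did, and 0 of 9 were higher at an unadjusted p under 0.05, against 2.75% of all genes. The groups did not overlap for Steap4 alone (1.93% of all genes). In females the differences ran from 0.20 for Hp to 2.09 for Lcn2, with 0.98 for Serpina3n (SE 0.35, unadjusted p = 0.0214, limma adjusted p = 1.0), the single gene past an unadjusted p of 0.05 there (1.58% of all genes). Both cit-AgNP females lay above both control females for Serpina3n and Steap4, which held for 14.9% of all genes. In males the differences ran from -0.15 for Orm2 to 0.56 for Lcn2, with 0 of 9 higher at an unadjusted p under 0.05 (2.45% of all genes).

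Within the cit-AgNP group, replicate 1, a female, deviated most. Each liver was set against the mean of the 2 control livers of its sex, and the median of this deviation over the 9 genes was 1.12 in cit-AgNP replicate 1, with 9 of 9 above 0, and 0.03, 0.10 and 0.17 in cit-AgNP replicates 2, 3 and 4. In PVP-AgNP replicates 1 to 4 it was 2.37, 2.91, 0.36 and 0.37, and in control replicates 1 to 4 it was 0.11, -0.12, -0.11 and 0.12. PVP-AgNP replicates 1 and 2 and cit-AgNP replicate 1 were the 3 highest of the 12 livers for 8 of the 9 genes, all except Hp, an arrangement found in 1.15% of all genes tested. This arrangement, like that of the PVP-AgNP females above the other 10 livers, was chosen after the signals of these genes were seen, so both counts are descriptions.

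**Figure D3:**
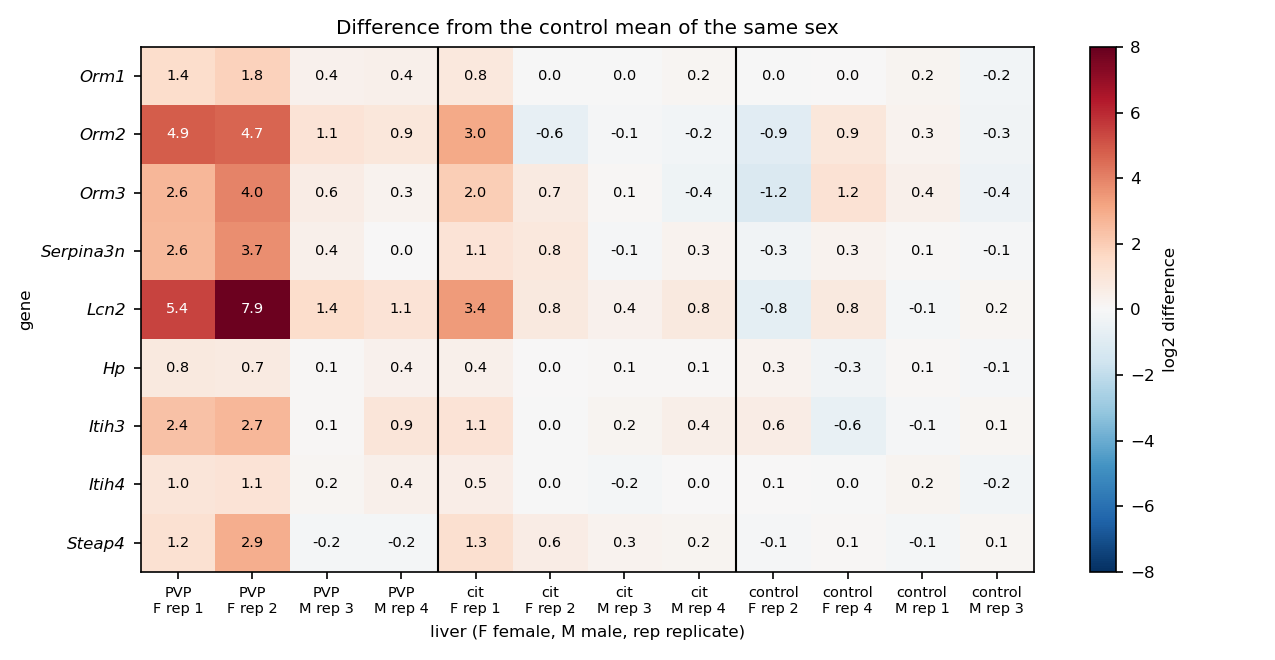
Difference of each liver from the mean of the sex-matched control livers (log2, colour and number) for 9 genes, with PVP-AgNP, cit-AgNP and control livers from left to right. The largest values are those of PVP-AgNP replicates 1 and 2, followed by cit-AgNP replicate 1, and the males of the exposed groups lie between -0.35 and 1.40.

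Set against each other, PVP-AgNP livers exceeded cit-AgNP livers by 0.34 (Hp) to 2.61 (Lcn2), with a median of 1.09. The difference was 2.36 for Orm2 (SE 0.88, 95% interval 0.41 to 4.31, limma adjusted p = 0.324) and 0.35 for Steap4 (SE 0.46, 95% interval -0.67 to 1.37, limma adjusted p = 0.751). None passed (0.0% of all genes passed), 7 of 9 were higher at an unadjusted p under 0.05, all except Orm3 and Steap4, against 5.29% of all genes, and in 0 of 9 did all PVP-AgNP livers lie above all cit-AgNP livers (2.36% of all genes). At an unadjusted p under 0.05, 9 of 9 were higher with PVP-AgNP among females (4.75% of all genes) and 0 of 9 among males (1.65% of all genes). Without PVP-AgNP replicate 2 the difference was 1.57 for Lcn2, 0.64 for Serpina3n, 0.74 for Orm3 and -0.20 for Steap4, and without both PVP-AgNP females it was 0.30 for Lcn2, -0.09 for Serpina3n and -0.58 for Steap4. Both coatings were compared with the same 4 control mice.

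Of the comparisons between groups and sexes, that of the sexes was the only one in which members passed. Orm3 was higher in the 6 females than in the 6 males by 3.27 (SE 0.54, 9.62-fold, limma adjusted p = 0.0130) and Orm2 by 3.68 (SE 0.72, 12.9-fold, limma adjusted p = 0.0274), with group as a term, where 2.18% of all genes passed. For Orm3 the 6 females lay above the 6 males, which held for 0.906% of all genes. The margin was narrow, since the lowest female, control replicate 2, had 6.59 and the highest male, PVP-AgNP replicate 3, had 6.57. In control livers alone the margin for Orm3 was narrow too, with 6.59 and 8.96 in females and 6.38 and 5.56 in males. Itih4 was at 0.62 (limma adjusted p = 0.0557) and Lcn2 at 3.44 (limma adjusted p = 0.0789), and Hp at -0.07 (limma adjusted p = 0.843), and 7 of 9 genes were higher in females at an unadjusted p under 0.05 (6.36% of all genes). Without both PVP-AgNP females neither call was kept, with 2.56 for Orm3 (limma adjusted p = 0.0977) and 2.64 for Orm2 (limma adjusted p = 0.200). The call of Orm2 was also lost in 9 of the 12 fits that left out 1 liver, with limma adjusted p-values of 0.0511 to 0.0718, and kept in those without control replicate 1, control replicate 2 or cit-AgNP replicate 2. The call of Orm3 was kept in each of the 12. With PVP-AgNP replicates 1 and 4 left out, whose arrays had the 2 lowest area values, both calls were lost (limma adjusted p = 0.104 for Orm2 and 0.0581 for Orm3).

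Over 36 pairs of genes the median Pearson correlation of the signals was 0.89 across the 12 livers and 0.63 across the 10 livers without the PVP-AgNP females, given as a description since the livers share groups and sexes. Orm2 and Orm3 had 0.95 and 0.92, Lcn2 and Serpina3n 0.98 and 0.90, and Itih3 and Itih4 0.91 and 0.62, over 12 and 10 livers in turn. Orm3 and Hp were the pair with the lowest value, 0.22 and -0.51.

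Genes outside the 10 were ranked by their correlation, over 12 mice and with sex means removed, with the average of the 10 standardised members. That average includes Hpx, although Hpx was mostly at the ceiling. Genes with provisional names, such as Gm or Rik, and microRNA genes were left out. Leading were the pentraxin serum amyloid P gene Apcs (0.97), the complement gene C4b (0.96), Lrg1, which encodes a secreted leucine-rich glycoprotein (0.96), and the lectin receptor gene Ly75 (0.96). Cyp3a13, a cytochrome P450, and Qsox1, a secreted sulfhydryl oxidase, had 0.95, and Cd302, Prg4, Cyb561 and Slc41a2 had 0.94. A correlation does not give the size of a difference. Between PVP-AgNP and control Ly75 differed by 0.24 and Cyb561 by 0.45, against 2.82 for Apcs. Both had low signals, from 4.98 to 5.58 for Ly75 and from 4.56 to 5.55 for Cyb561 over the 12 livers. Apcs had 14.48 and 16.62 in PVP-AgNP females and 10.52 and 12.07 in PVP-AgNP males, against 11.36 and 10.07 in control females and 10.68 and 10.30 in control males. At the other end were the glutathione transferase gene Gstm1 (-0.96), Hsd17b6, a hydroxysteroid dehydrogenase (-0.95), the peroxisomal oxidase gene Hao2 (-0.94) and Abcb11, the bile salt export pump (-0.93). In males Hao2 had low signals, from 4.09 to 4.44. Over the 10 livers without both PVP-AgNP females, the leading genes had 0.82 to 0.93 and those at the other end -0.82 to -0.94. For these 10 livers the sex means and the standardisation were still those of all 12 livers. The values of both PVP-AgNP females therefore still entered, and likeness without these females was not tested.

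Other positive acute phase genes lay the same way, with 17 of 21 above 0 between PVP-AgNP and control and a median of 0.97, leaving out 5 that stood at the ceiling on 10 or more arrays. None passed over all genes, and 9 were higher at an unadjusted p under 0.05, against 8.05% of all genes. Fgl1, a liver-secreted fibrinogen-like protein, had 2.46 (SE 0.40, limma adjusted p = 0.0577), and the amyloid genes Saa2 and Saa1 had 6.80 and 5.83 (limma adjusted p = 0.0757 and 0.0877). C4b, a complement gene, had 1.35 (SE 0.36, limma adjusted p = 0.126). Within males the median of the 21 genes was 0.54, with 17 above 0, and that of the 9 genes described here was 0.37, with 8 above 0. Among the 21, 5 were higher in males at an unadjusted p under 0.05, against 3.64% of all genes, and none passed. Fgl1 had 2.19, Saa2 4.21, Saa1 3.88 and C4b 0.62 in males (limma adjusted p-values of 0.498 to 0.732). Of 11 negative acute phase genes counted in the same way over both sexes, 7 were below 0, with a median of -0.22. Their median was -0.09 in females and -0.02 in males with PVP-AgNP, and -0.21 between cit-AgNP and control. Serpina6, which encodes corticosteroid-binding globulin, had -0.75 (SE 0.16, limma adjusted p = 0.0876) and the carbonic anhydrase gene Car3 -1.16 (SE 0.32, limma adjusted p = 0.133). Apoc3, an apolipoprotein gene, had -0.28 (limma adjusted p = 0.347). Itih1 and Itih2, the heavy-chain relatives of Itih3 and Itih4, had 0.45 and 0.02 (limma adjusted p = 0.346 and 0.970).

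Of the 24 tested genes of the inducing pathway, none passed, 11 were above 0 and the median was -0.03, with 4 higher and 1 lower at an unadjusted p under 0.05. Over all genes 8.05% were higher and 12.2% lower at that level. Stat3, the interleukin-6 signal transducer, had 0.82 (SE 0.26, limma adjusted p = 0.159), with 10.03 and 10.48 in PVP-AgNP females and 8.73 and 9.30 in PVP-AgNP males, against 9.02 and 8.79 in control females and 8.65 and 8.81 in control males. Nfkbiz, an NF-kB cofactor, had 0.60, Cebpb 0.46 and Rela, an NF-kB subunit, -0.70 (limma adjusted p-values of 0.152 to 0.162). Between cit-AgNP and control none of the 24 passed and 14 were above 0. There 6 were higher at an unadjusted p under 0.05 (2.75% of all genes) and 1 was lower (764 of the 19985 genes). Cebpb had 0.54, Nfkbiz 0.52, Stat3 0.35 and Rela -0.07 with cit-AgNP (limma adjusted p-values of 0.409 or above). The cytokine genes Il6, Tnf and Osm and the feedback inhibitor Socs1 were below the filter on low signal, and Il6 lay between 3.52 and 4.01 on all 12 arrays. Of 17 tested partners, receptors and relatives, none passed between PVP-AgNP and control and 10 were above 0. Cd163 had 1.05 (SE 0.41, limma adjusted p = 0.202) and Hmox1, which degrades haem, 0.68 (SE 0.26, limma adjusted p = 0.205). Ftl1, a ferritin light chain, had -0.44 (SE 0.11, limma adjusted p = 0.119) and Itih5 -0.54 (SE 0.22, limma adjusted p = 0.210). With cit-AgNP, Cd163 had 0.96, Hmox1 0.18, Ftl1 -0.26 and Itih5 0.01 (limma adjusted p-values of 0.727 or above).

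Markers of other cells of the liver were measured beside these genes. Of 11 tested neutrophil markers 11 were above 0 between PVP-AgNP and control, with a median of 0.40, while the granule markers Ngp, Mpo and Elane were below the filter. The mean log2 signal over the 14 measured neutrophil markers was 5.24, 6.14, 5.22 and 5.16 in PVP-AgNP replicates 1 to 4, 5.01 to 5.34 in cit-AgNP livers and 4.33 to 5.32 in control livers. The calprotectin genes S100a8 and S100a9 had differences of 2.10 and 1.96, the chemokine receptor gene Cxcr2 0.39 and Stfa2l1, a stefin relative, 0.56 (limma adjusted p-values of 0.152 to 0.218). S100a8 had 8.64, 11.63, 8.76 and 8.08 in PVP-AgNP replicates 1 to 4, against 4.76, 7.57, 7.44 and 8.94 in control replicates 1 to 4. Its difference thus rested largely on the high PVP-AgNP replicate 2 and the low control replicate 1. The mean over 11 Kupffer cell markers was 8.25, 9.84, 7.79 and 8.04 in PVP-AgNP replicates 1 to 4, 9.08, 8.71, 7.84 and 8.14 in cit-AgNP replicates 1 to 4, and 7.64 to 8.75 in control livers. Among them Cd5l had 1.36 (SE 0.45, limma adjusted p = 0.168), Marco 0.57, Clec4f 0.56 and Adgre1 0.46, the last 3 with limma adjusted p-values of 0.281 to 0.393. PVP-AgNP replicate 2, the highest liver for 7 of the 9 genes, was thus also the highest for both marker lists. PVP-AgNP replicate 1 lay within the control range for both. The liver cit-AgNP replicate 1 lay above that range for both, at 5.34 against 5.32 for neutrophil and 9.08 against 8.75 for Kupffer cell markers. Of the 11 Kupffer cell markers, 11 were above 0 with PVP-AgNP (median 0.34) and 11 with cit-AgNP (median 0.42). Within the sexes, 11 were above 0 with PVP-AgNP in females (median 0.75), while in males 4 were above and 7 below 0 (median -0.09). Of the 11 tested neutrophil markers, 10 were above 0 with cit-AgNP (median 0.20). Between PVP-AgNP and control, 8 of 8 stellate cell markers were below 0 (median -0.32), led by Reln at -0.83 (SE 0.16, limma adjusted p = 0.0710). Pdgfrb had -0.38, Lrat -1.18 and Dcn -0.45 (limma adjusted p-values of 0.104 to 0.304). Of the adipocyte markers Adipoq and Lep were below the filter, and the 4 tested, Plin1, Fabp4, Retn and Cidec, had 0.11, -0.27, 0.18 and -0.01. Of 9 measured hepatocyte markers 7 were left out for the ceiling, and the other 2, Pck1 and Apoa1, had 0.39 and 0.00. Apoa1 also had 0.00 (SE 0.03) between cit-AgNP and control. Whether the ceiling or shared values held its signal was not tested, so its 0.00 is not read as a lack of change. The part of these cells in the results was not tested.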

How the data were processed

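Total liver RNA was extracted with Trizol and labelled for whole-transcript arrays, per the labels' protocols. The deposited table holds log2 signals of 72688 probe sets, and RMA and Transcriptome Analysis Console 4.0.1.36 are named in the submitters' processing notes. The sources used here do not give the genome build or the annotation behind the signals, and scanner files were not used here. Probe sets naming 1 gene symbol were kept (30604), symbols were updated for 1135 of them with a RefSeq table of GRCm38.p6, and the brightest probe set stood for each gene. The 19985 genes tested had a mean signal over 3.93, which 40 percent of probe sets did not reach.

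Group differences were computed with limma 3.58.1 in R 4.3.3 (lmFit, then eBayes with a trend) on all 12 arrays with group and sex as terms, and with 6 group-by-sex means for responses within a sex. P-values were adjusted by Benjamini-Hochberg over these genes, and a gene passed at an adjusted p under 0.05. The procedure was tested on simulated data with known changes. Array and gene summaries, correlations, motif searches and plots used Python 3.11.15, with pandas 2.3.3 and matplotlib 3.10.9, and the alignment of upstream sequences used biopython 1.88. Replicate numbers were not found to mark shared litters or batches, and the fit with them as a block is an alternative. From each list of other genes those past the threshold, or else the 4 of smallest p in PVP-AgNP against control, are named. Further list genes named here (Itih2, Il6, Tnf, Osm, Socs1 and markers below the filter) were chosen with their values known. The members and the lists were chosen with earlier results of these data known. The number of arrays limits the precision.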

Additional observations from a re-analysis of the deposited data

Results flagged for a closer look

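In 30 groups of 4 livers (10 genes in 3 groups), the highest and lowest liver were set against the rest of the group with Dixon's test. Chance passes it in about 1 of 20 groups for untied values of 1 population, whereas these groups held 2 females and 2 males. Orm1 in control replicate 3, a male, was 17.61, below the other control livers at 18.04 to 18.07. Hp in cit-AgNP replicate 2, a female, was 18.05, while the other cit-AgNP livers shared the value 18.40. Steap4 in cit-AgNP replicate 1, a female, was 14.57, above the other cit-AgNP livers at 13.78 to 13.89. Hpx in control replicate 4, a female, was 19.64 and in cit-AgNP replicate 2 it was 19.93, just under the ceiling, where all other livers of both groups stood at the ceiling. For Hp and Hpx the rest of the group shared 1 value, so any deviation at all would have been flagged.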

How the results depend on the processing

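Between PVP-AgNP and control, the 9 genes kept their direction and stayed short of the threshold in 207 of 207 values over 23 alternatives, with a lowest limma adjusted p of 0.0647, and the PVP-AgNP response in females minus males did so in 171 of 171. For cit-AgNP against control and for PVP-AgNP against cit-AgNP, 204 of 207 did. With 1 liver left out, the cit-AgNP minus control difference was as low as -0.15 for Orm2 (without control replicate 2; -0.10 without cit-AgNP replicate 1) and as high as 1.27, and for Orm3 it ran from -0.10 to 1.05. The PVP-AgNP minus cit-AgNP difference of Steap4 ran from -0.20 (without PVP-AgNP replicate 2) to 0.59. Without both PVP-AgNP females, an alternative added after seeing the data, it was -0.58, and that of Serpina3n -0.09. The female minus male difference of Hp ran from -0.14 to 0.03, and was 0.08 after quantile normalization. The causes were not tested.

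Over all genes, 8 passed between PVP-AgNP and control. The count was 0 with only the 2 groups compared, with quantile normalization, without the 2 arrays of lowest area and without both PVP-AgNP females, 2 without a sex term or with the area as a covariate, 4 with no filter, 5 with the mean over probe sets, 52 without a trend and 85 with the filter at the 60th percentile. It ran from 1 (without PVP-AgNP replicate 1) to 61 (without PVP-AgNP replicate 3) with 1 liver left out. For cit-AgNP against control, where 1 passed, it was 0 with only the 2 groups compared, without a sex term or without the 2 arrays of lowest area, 2 with quantile normalization or without a trend, 4 with the stricter filter and 5 with the covariate, and 0 to 6 with 1 liver left out. Quantile normalization gave 1 between the coatings. With 1 liver left out, 0 to 3 genes passed for the sex difference in the PVP-AgNP response and 0 to 2 in the cit-AgNP response, none of them a member. Between females and males 435 passed, with 245 to 605 when 1 liver was left out, 930 with the covariate and 230 without both PVP-AgNP females. Members that passed there numbered 2, and 1 to 3 with 1 liver left out. They numbered 0 without the 2 arrays of lowest area (Orm2 3.23 and Orm3 3.08, limma adjusted p = 0.104 and 0.0581) and 0 without both PVP-AgNP females. Itih4 passed with the stricter filter (limma adjusted p = 0.0425), with the covariate (0.0494) and without control replicate 1 (0.0237), and Lcn2 without control replicate 2 (0.0418).

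Same-numbered arrays had correlations of -0.44 to 0.234 in their deviations from the fit with group and sex. Of the 12 arrays, 1 was most like an array of its own number. With the replicate number as a block, 0 genes passed for either coating against control and 56 between the sexes, where 0 members passed (Orm2 4.09 and Orm3 3.37, limma adjusted p = 0.175 and 0.254). The block changed no other call of a member.

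The ceiling of the table leaves Hpx unmeasured and bounds Orm1, Serpina3n and Itih4 in PVP-AgNP replicate 2. With 2 mice of each sex in a group, all statements on sex and coating together rest on few livers.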
